A study of Homo sapiens and Mus musculus with 20 samples.

Results

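The 8 human genes that encode ligands of NKG2D were followed through an ATAC-seq experiment in SW480 cells. NKG2D is an activating receptor on natural killer (NK) cells and on cytotoxic T cells. It binds stress-induced relatives of class I major histocompatibility molecules, the MIC proteins (MICA and MICB) and the ULBP or RAET1 proteins (ULBP1, ULBP2, ULBP3, RAET1E, RAET1G and RAET1L), and a transformed cell that displays them can be killed. Propionate is known to raise these ligands at the cell surface, so the question here was whether chromatin accessibility at their genes moved with it, or with butyrate.

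Regions were chosen by position alone. Every peak interval of the 12 SW480 lists was merged with those it overlapped, and regions within a ligand gene (GENCODE, GRCh38) or within 10 kb of it on either side were kept. This gave 59 of 252173 regions, from 73 to 1711 bp long. They comprised 11 regions at MICA, 7 at MICB, 5 at ULBP1, 6 at ULBP2, 7 at ULBP3, 9 at RAET1E, 4 at RAET1G and 11 at RAET1L, with 1 region shared by the windows of ULBP2 and ULBP1. A peak was listed in all 12 libraries for 22 of the 59, and in a single library for 10.

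SW480 is an established human colorectal adenocarcinoma line. In one experiment 3 libraries came from cells given 10 mM sodium propionate (NaPr) and 3 from untreated cells (0 mM). In the other, 3 libraries came from cells given 1 mM sodium butyrate (NaBu) and 3 from untreated cells of their own. Both salts are short-chain fatty acids and acted for 12 to 16 h on cells in serum-containing medium. These doses are those of the sample labels; the series' design text gives them in the reverse order. The compounds differed in dose and each experiment carried its own date, so their values are given side by side and were not tested against each other. The labels call the libraries experimental replicates without naming separate cultures, so p-values cover the spread between these libraries, which may be technical. Cells were measured in bulk, where a site open in fewer cells and a site less open in each cell cannot be told apart.

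Each list was capped, its peak numbering ending at 300000, and held 108442 to 144398 distinct intervals. The weakest listed peak had a −log10 p of 3.37 to 6.53 in the NaPr experiment and 7.25 to 9.38 in the NaBu experiment. Relative depth, read as the background number of overlapping tags, was 0.936 to 2.35 in the NaPr experiment and 2.11 to 3.03 in the NaBu experiment. The NaPr libraries were thus mostly the shallower, and more uneven. Untreated replicate 2 of the NaPr experiment, at 2.35, lay within the NaBu range. Of 7 colon epithelial markers 6 had a start region with a peak in all 12 libraries, 5 of 6 lymphocyte and NK cell markers had none, and 2 of 5 fibroblast markers (COL1A1 and COL1A2) had one in all 12.

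The MIC genes lie in the class I region of the short arm of chromosome 6, MICA at 31399784 to 31415315 and MICB at 31494881 to 31511124, both on the plus strand. The other 6 genes form a cluster on the long arm, from RAET1E at 149883179 to 149898113 (minus strand) through RAET1G (149916878 to 149923121, minus), ULBP2 (149942014 to 149949235, plus), ULBP1 (149963943 to 149973715, plus) and RAET1L (150018334 to 150025532, minus) to ULBP3 (150061053 to 150069121, minus). A further 17 annotated genes overlap these windows, among them MICB-DT, RAET1E-AS1, the pseudogene RAET1M and the readthrough locus ENSG00000285991, so a peak in a window need not belong to the ligand gene. Of the 59 summits 17 lay inside a ligand gene and 32 lay in no annotated gene.

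The bases before a gene's start carry the sites at which transcription is set up. The 250 bases before the MANE Select start of 5 ligand genes follow (RefSeq, GRCh38.p14, gene strand, 5′ to 3′). They were chosen because they hold the most and the least accessible of these starts in untreated cells (ULBP3 and RAET1E). They also hold the 2 MANE Select starts whose NaPr-treated libraries all lay below the untreated ones (MICA and RAET1L), and the near-copy of MICA (MICB). Capitals mark the letters searched on both strands: GGGCGG for the GC box, CCAAT for the CCAAT box, TATAAA for the TATA box, TGANTCA for AP-1, TGACGTCA for CRE and GAANNTTC for the heat shock element.
MICA, chr6:31403345-31403594, plus strand: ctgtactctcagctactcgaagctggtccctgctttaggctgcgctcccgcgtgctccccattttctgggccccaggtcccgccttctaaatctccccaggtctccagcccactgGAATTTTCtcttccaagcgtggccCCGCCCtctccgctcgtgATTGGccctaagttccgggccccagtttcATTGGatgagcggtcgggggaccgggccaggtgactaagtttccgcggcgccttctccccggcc
MICB, chr6:31497895-31498144, plus strand: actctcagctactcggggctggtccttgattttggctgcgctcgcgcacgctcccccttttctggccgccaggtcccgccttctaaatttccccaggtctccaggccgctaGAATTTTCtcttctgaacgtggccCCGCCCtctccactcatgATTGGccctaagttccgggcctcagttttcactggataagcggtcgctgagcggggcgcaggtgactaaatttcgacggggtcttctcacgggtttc
ULBP3, chr6:150069122-150069371, minus strand: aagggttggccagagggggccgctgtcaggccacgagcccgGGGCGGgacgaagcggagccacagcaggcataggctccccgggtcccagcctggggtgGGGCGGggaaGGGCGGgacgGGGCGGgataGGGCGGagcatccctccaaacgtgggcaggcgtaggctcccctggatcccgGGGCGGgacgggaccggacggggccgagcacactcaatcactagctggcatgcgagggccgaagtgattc
RAET1L, chr6:150025533-150025782, minus strand: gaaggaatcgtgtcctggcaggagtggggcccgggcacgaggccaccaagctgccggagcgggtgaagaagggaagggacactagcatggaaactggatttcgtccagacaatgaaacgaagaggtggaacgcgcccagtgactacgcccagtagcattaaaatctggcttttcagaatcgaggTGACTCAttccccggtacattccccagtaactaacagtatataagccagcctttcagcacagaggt
RAET1E, chr6:149898114-149898363, minus strand: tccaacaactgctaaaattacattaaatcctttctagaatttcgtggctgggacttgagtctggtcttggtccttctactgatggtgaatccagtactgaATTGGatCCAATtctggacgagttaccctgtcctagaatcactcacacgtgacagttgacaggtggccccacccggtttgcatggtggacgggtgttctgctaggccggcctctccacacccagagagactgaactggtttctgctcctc

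The MICA and MICB stretches were 82.7% identical and shared a GC box, a CCAAT box and a heat shock element, GAATTTTC in both. The heat shock letters occurred before 5.78% of the 35116 RefSeq starts searched in the same way, the GC box before 42.6% and the CCAAT box before 32.0%. ULBP3 held 6 GC boxes in 250 bases of 72.0% G and C, whereas RAET1L and RAET1E held none. RAET1L held an AP-1 match, present before 6.57% of starts, and RAET1E a pair of CCAAT matches. Neither TATA box nor CRE letters, found before 10.7% and 1.65% of starts, occurred in these 5 windows. These matches describe the letters and not the binding of a factor.

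Accessibility was expressed as a percentile rank. Within each library the merged regions with a peak were ranked by the highest −log10 p of their summits, from just above 0 for the weakest to 100 for the strongest, and a region without a listed peak was set to 0. The start region of a gene is the one that covers its MANE Select start, or the nearest within 1 kb. MICA and MICB also have an upstream start in the longest gene record, whose region is described apart. RAET1E had no peak over its MANE Select start, and its nearest region lay 244 bp inside the gene. Further RefSeq starts of RAET1E, at 149896130 and 149890944, lie within regions that had a peak in all 12 libraries. In untreated cells their mean ranks were 66.1 and 64.3 in the NaPr experiment, and 49.6 and 59.1 in the NaBu experiment. At the second, ranks were 67.1, 63.2 and 62.7 untreated and 60.8, 46.4 and 48.5 after NaPr, without overlap. That change of −12.4 ± 5.88 (treated minus untreated, SE) did not pass (limma adjusted p = 0.232). Its groups overlapped with NaBu, and those of the first overlapped in both experiments. The first changed by 8.62 ± 4.91 after NaBu (adjusted p = 0.195). Between 87.3% and 98.5% of the 32-base words of the start regions occurred once in the genome, so most of their reads could be placed.

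All 8 genes had a start region in untreated cells, and 7 of the 8 were listed in all 12 libraries. The order of mean rank in the untreated cells of the NaPr experiment was ULBP3 (96.3 ± 0.858, SD, n = 3), MICA (87.3 ± 2.31), ULBP1 (84.1 ± 0.874), RAET1G (83.4 ± 1.67), ULBP2 (77.0 ± 5.68), MICB (75.5 ± 8.73), RAET1L (72.4 ± 4.89) and RAET1E (63.4 ± 3.37). The neighbours ULBP1 and RAET1G overlapped, as did ULBP2, MICB and RAET1L in turn, and the other neighbours did not. Farther apart in the order, MICA overlapped RAET1G, MICB overlapped ULBP1, RAET1G and RAET1E, and ULBP2 overlapped RAET1L. In the untreated cells of the NaBu experiment ULBP3 (91.8 ± 1.10) and ULBP1 (91.1 ± 0.739) overlapped at the top. ULBP2, MICB, MICA, RAET1G and RAET1L followed between 83.0 and 78.1, each overlapping the next. RAET1E stood last at 15.8 ± 15.5.

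**Figure D1:**
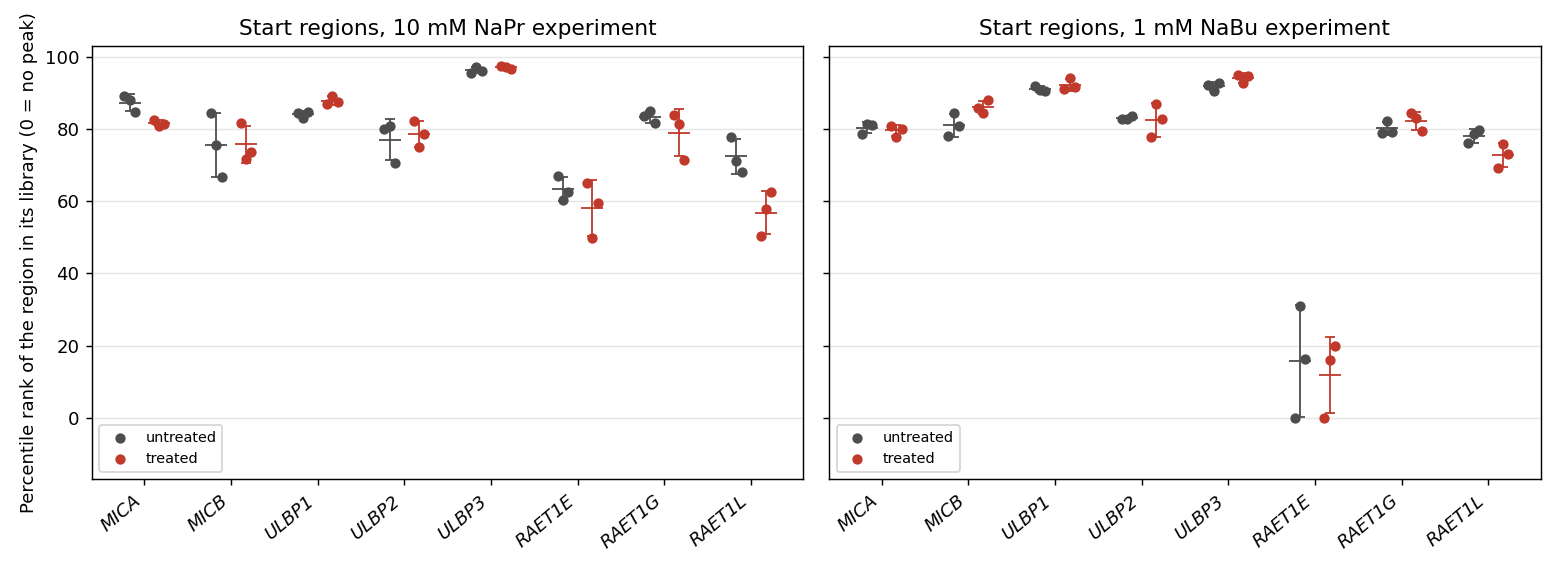
Percentile rank of the start region of each NKG2D ligand gene (vertical axis, 0 where no peak was listed) in the 3 untreated and 3 treated libraries of each experiment; points are libraries and bars the mean with its SD. ULBP3 is highest on average in each group, MICA and RAET1L lie lower in NaPr-treated than in untreated libraries, and RAET1E is far lower in the NaBu experiment than in the NaPr experiment.

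At the start region of MICA (31402784 to 31404166), the stress-inducible ligand of broad tissue range, the NaPr experiment gave ranks of 89.2, 88.0 and 84.7 in untreated and 82.4, 80.7 and 81.5 in treated libraries. The treated libraries lay below the untreated ones without overlap, a change of −5.77 ± 1.63 percentile points (treated minus untreated, SE) that did not pass the test (limma adjusted p = 0.0639). Groups without overlap were found at 26.2% of all regions tested after NaPr. The MICA start passed as lower under 3 of 16 other settings. It changed by −5.66 ± 1.32 with ranks counted from the top of the list (adjusted p = 0.0273) and by −14.3 ± 4.09 with the top 50000 intervals (adjusted p = 0.0434). On the log2 scale of summit tags over the library median it changed by −0.515 ± 0.116 (adjusted p = 5.17e-04). That scale called 12969 of 65178 regions lower genome-wide and 7978 higher. Tags over background gave −0.257 ± 0.230 (log2, adjusted p = 0.507), and fold enrichment −8.01 ± 4.49 points (adjusted p = 0.345). In the NaBu experiment the ranks were 78.6, 81.3 and 81.1 untreated and 80.9, 77.9 and 80.1 treated, and the groups overlapped (−0.697 ± 1.52, adjusted p = 0.737).

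At the start region of MICB (31497608 to 31498611), which encodes the close relative of MICA, the NaPr ranks were 84.3, 75.5 and 66.8 untreated and 81.6, 71.8 and 73.7 treated, with wide overlap (0.178 ± 4.17, adjusted p = 0.986). The NaBu ranks were 78.0, 84.3 and 80.8 untreated and 85.9, 84.3 and 87.9 treated. The highest untreated library equalled the lowest treated one to the digits shown, and the change of 4.97 ± 1.78 did not pass (adjusted p = 0.0578). Without untreated replicate 2 it was 6.59 ± 1.62 and passed (adjusted p = 0.0259).

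ULBP1 encodes a ligand anchored to the membrane by a glycolipid. Its start region (149962530 to 149964240) ranked 84.5, 83.1 and 84.6 in untreated and 86.8, 89.1 and 87.6 in NaPr-treated libraries. The groups did not overlap, and the change of 3.74 ± 1.38 did not pass (adjusted p = 0.135). With NaBu it ranked 91.9, 90.7 and 90.6 untreated and 91.2, 94.2 and 91.5 treated, and these groups overlapped (1.22 ± 0.965, adjusted p = 0.340).

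At ULBP2, the start region (149941570 to 149942869) ranked 79.9, 80.7 and 70.5 untreated and 82.3, 75.1 and 78.7 after NaPr (1.69 ± 3.05, adjusted p = 0.770), and 82.7, 82.8 and 83.5 untreated and 77.7, 87.0 and 82.7 after NaBu (−0.544 ± 2.16, adjusted p = 0.858). The groups overlapped in both experiments.

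ULBP3 had the highest start region (150068271 to 150069613), the one with the 6 GC boxes shown above. Its ranks were 95.6, 97.2 and 96.1 untreated and 97.5, 97.1 and 96.5 after NaPr, which overlapped (0.735 ± 0.779, adjusted p = 0.592). They were 92.2, 90.5 and 92.6 untreated and 95.0, 92.6 and 94.8 after NaBu, where the lowest treated library met the highest untreated one (2.38 ± 0.905, adjusted p = 0.0704). Without treated replicate 2 the NaBu change was 3.13 ± 0.828 and passed (adjusted p = 0.0376), as it did among regions with a peak in all 6 libraries (adjusted p = 0.0465).

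RAET1E encodes the ligand also called ULBP4, and its nearest region (149897257 to 149897869) had the lowest mean rank of the 8 in both untreated groups and after NaBu, while after NaPr RAET1L was lower (56.8 against 58.0, with overlap). It ranked 67.0, 60.4 and 62.6 untreated and 65.0, 49.7 and 59.4 after NaPr (−5.31 ± 5.48, adjusted p = 0.581). In the NaBu experiment it ranked 31.0 and 16.4 in untreated replicates 2 and 3 and 15.9 and 19.9 in treated replicates 2 and 3, with no peak in replicate 1 of either group (−3.86 ± 8.75, adjusted p = 0.747). The groups of this region overlapped in both, and the further RAET1E starts are described above.

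RAET1G encodes a ligand with transmembrane and soluble forms. Its start region (149922304 to 149923584) ranked 83.7, 84.9 and 81.6 untreated and 83.9, 81.5 and 71.5 after NaPr, the low value being treated replicate 3 (−4.43 ± 2.87, adjusted p = 0.367). On summit tags over the library median it was lower after NaPr by −0.360 ± 0.127 (log2, adjusted p = 0.0250), the only 1 of 16 other settings under which it passed. Tags over background gave −0.102 ± 0.234 (log2, adjusted p = 0.831). The NaBu ranks of 79.0, 82.3 and 79.1 untreated and 84.3, 83.0 and 79.5 treated overlapped (2.12 ± 1.70, adjusted p = 0.346).

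RAET1L, the gene of the ligand also called ULBP6, had the largest changes at a MANE Select start. Its region (150024909 to 150026387), centred 30 bp before the start in the sequence with the AP-1 match, ranked 77.8, 71.2 and 68.2 untreated and 50.4, 57.7 and 62.4 after NaPr. It ranked 76.0, 78.6 and 79.8 untreated and 69.3, 75.9 and 73.0 after NaBu. The treated libraries lay below the untreated ones in each experiment without overlap, by −15.6 ± 4.72 (adjusted p = 0.0776) and −5.38 ± 2.20 (adjusted p = 0.0880), and neither passed. The summit held 187, 131 and 162 tags in untreated and 102, 129 and 116 in NaBu-treated libraries.

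The RAET1L start passed as lower under 2 of 16 other settings after NaPr and 4 of 16 after NaBu. After NaPr these were the top 50000 intervals (−30.3 ± 7.19, adjusted p = 0.0233) and summit tags over the library median (−0.658 ± 0.185, log2, adjusted p = 0.00482). Tags over background did not pass after NaPr (−0.400 ± 0.265, log2, adjusted p = 0.334). After NaBu they were ranks counted from the top of the list (−7.15 ± 1.97, adjusted p = 0.0218), the top 50000 intervals (−16.4 ± 5.29, adjusted p = 0.0389), and tags scaled by the background (−0.413 ± 0.109, log2, adjusted p = 0.00416) or by the median (−0.409 ± 0.109, adjusted p = 0.00402). On either tag scale the MICA start was lower after NaBu too, by −0.262 ± 0.0954 (adjusted p = 0.0278) and −0.258 ± 0.0953 (adjusted p = 0.0291). These were the 2 of 16 other settings under which it passed after NaBu.

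**Figure D2:**
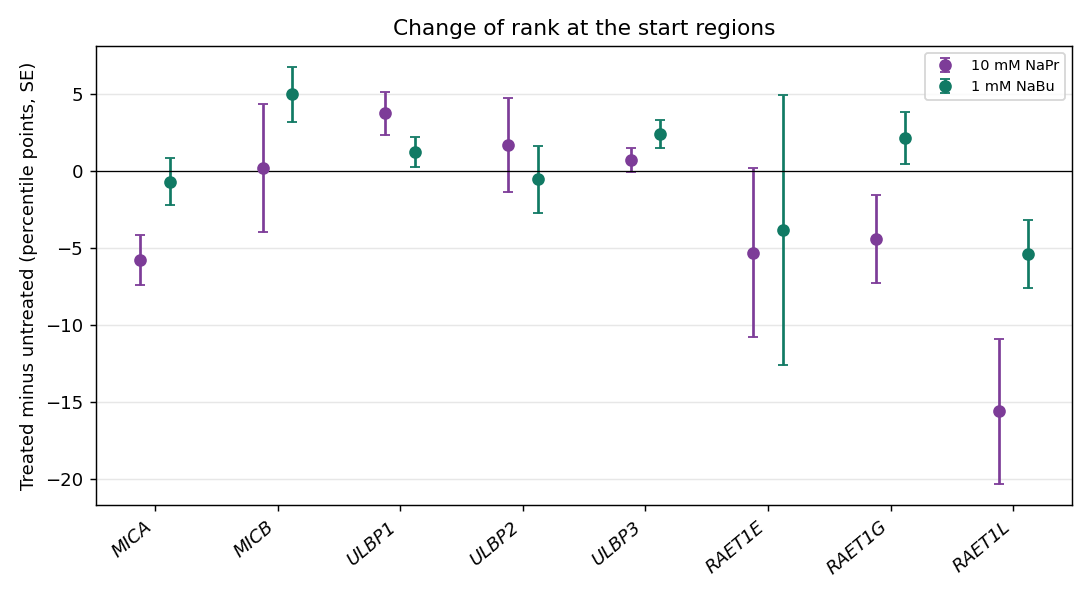
Treated minus untreated mean percentile rank at the start region of each ligand gene (vertical axis, percentile points) for NaPr and NaBu; points are the changes and bars their SE from limma. The RAET1L change lies below 0 with both compounds, the MICA change below 0 with NaPr, and no point passed an adjusted p of 0.05.

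Thus none of the 8 MANE Select start regions passed the test with either compound on the percentile scale used here, with the exceptions under other settings given above. The upstream start of MICB did. Its nearest region (31493800 to 31494685), 196 bp outside the gene record and with its summit in an intron of MICB-DT, ranked 81.3, 82.7 and 83.8 in untreated and 77.2, 78.9 and 76.6 in NaBu-treated libraries. All treated libraries lay lower (−5.05 ± 1.42, adjusted p = 0.0240). With NaPr it ranked 83.8, 80.6 and 77.9 untreated and 85.7, 79.9 and 84.0 treated, which overlapped (2.46 ± 2.16, adjusted p = 0.508). The upstream start of MICA (31399635 to 31400385) ranked between 55.6 and 67.9 in the NaPr experiment and between 69.2 and 78.0 in the NaBu experiment, with adjusted p-values of 0.930 and 0.205.

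The window regions as a whole were then set against all SW480 regions. After NaPr no region of the ligand genes was called among 39 tested (a peak in at least 2 of the 6 libraries), where limma called 5.32% of 124067 tested regions genome-wide, 3.10% higher and 2.22% lower. An unadjusted p below 0.05 was found for 7 of the 39 (17.9%), against 28645 regions (23.1%) in all. The groups did not overlap at 8 of the 39 (20.5%), against 26.2% of all tested regions. Other settings of the same test called up to 5 ligand regions, of 55 tested with summit windows, where 11621 of 162247 passed genome-wide. The genome-wide calls rested on all 6 libraries: 3179, 832 and 342 regions passed without untreated replicate 1, 2 or 3, and 1182, 211 and 0 without treated replicate 1, 2 or 3. In the last case 26369 regions had an unadjusted p below 0.05 in limma. The changes ran from −40.5 to 46.2 percentile points with a median of 2.46, and 28 of 39 were positive (71.8%), against a median of 0.526 and 52.9% positive over all tested regions.

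After NaBu 12 of 40 tested ligand regions were called (30.0%), 8 higher (20%) and 4 lower (10.0%). Genome-wide 37.1% of 123730 tested regions were called, 24% higher and 13.1% lower, so the share at the ligand genes was not above the background. The changes had a median of 1.67 with 23 of 40 positive (57.5%), against a median of 2.92 and 60.5% positive over all regions. The NaBu-treated lists were the longer, and the part of list length in that genome-wide shift was not tested. With ranks counted from the top of the list the median over all regions was 0.610, and higher calls made up 51.4% of all calls in place of 64.7%. On that scale 15 of 40 ligand regions were called, 7 higher and 8 lower, against 45184 of 123730 genome-wide. On summit tags over the background or over the median, higher calls made up 45.5% and 46.0%. On each, 6 of 27 ligand regions were called, 2 higher and 4 lower, against 38317 and 38505 of 72559 genome-wide. For NaPr the share of higher calls was 58.3% on the main scale and 53.7%, 92.5% and 38.1% on these 3 scales.

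**Figure D3:**
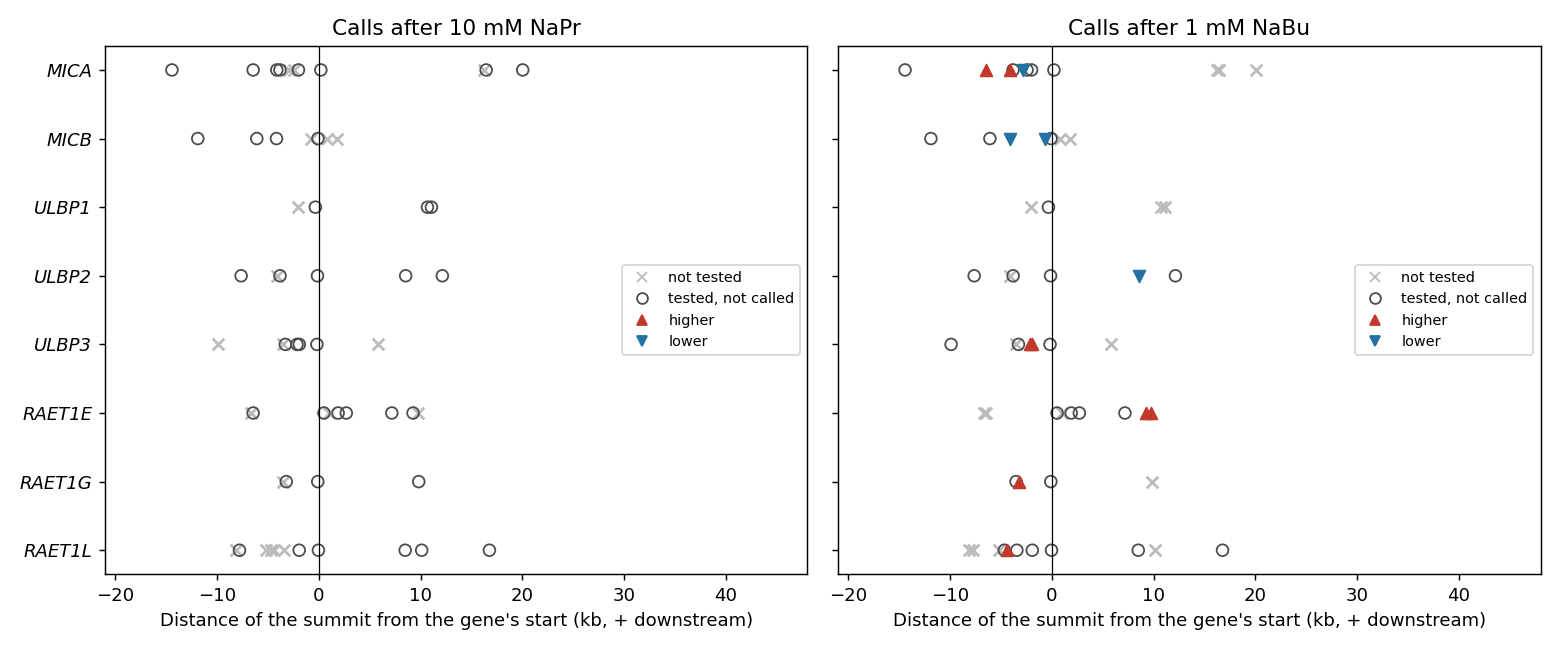
Position of each region's summit relative to the MANE Select start of its gene (horizontal axis, kb, positive downstream) for the 8 ligand genes, with the call after NaPr and after NaBu; the region shared by ULBP2 and ULBP1 is drawn at ULBP2. No region is called after NaPr, and the 12 regions called after NaBu have summits at least 1908 bp from the MANE Select start of their gene, except the MICB region 715 bp upstream.

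All 12 calls after NaBu had groups that did not overlap, as did 99.2% of the calls genome-wide, and 9 of the 12 rested on a library without a listed peak, where the rank was set to 0 and the true level is known only to lie under the limit of that list. A peak in all 6 libraries stood behind 3 of the 12 calls, at ULBP3, RAET1G and MICB, and behind 61.1% of the calls genome-wide. A peak was absent from all untreated libraries at 2 of the 12 and from all treated ones at 1, so these entered the test through the other group alone. The 12 calls are described by gene.

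At ULBP3, adjacent regions upstream of the start rose together after NaBu. The first, 1908 bp upstream (150070971 to 150071085), ranked 14.4, 14.7 and 0 in untreated and 55.6, 52.3 and 48.8 in treated libraries (42.5 ± 6.42, adjusted p = 0.00182). The second, 2135 bp upstream (150071182 to 150071304), ranked 66.0, 79.4 and 70.4 untreated and 86.4, 88.4 and 88.1 treated (15.7 ± 3.05, adjusted p = 0.00508). Every treated library lay above every untreated one at both, and the calls held under all 12 and all 16 other settings that gave a value, in that order. Settings that needed a peak in all 6 libraries gave no value at the first. The size at the first depended on the ranking value. By fold enrichment the changes were 7.86 ± 1.80 (adjusted p = 0.0233) and 23.6 ± 6.78 (adjusted p = 0.0472). At the second, the summit held 169, 153 and 145 tags untreated and 197, 210 and 218 treated.

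The same ULBP3 regions after NaPr gave 0, 29.5 and 0 untreated against 64.6, 54.9 and 48.5 treated at the first (46.2 ± 12.3, adjusted p = 0.0537), and 63.4, 62.5 and 36.7 against 71.1, 67.9 and 65.0 at the second (13.8 ± 7.02, adjusted p = 0.261). Neither passed. No library overlapped between the groups at either, as at 26.2% of all regions tested after NaPr. The first passed as higher with windows around the summits (47.6 ± 11.8, adjusted p = 0.0405) and with ranks counted from the top (47.3 ± 12.4, adjusted p = 0.0409). Its adjusted p was the lowest of the 39 ligand regions tested after NaPr. Both sequences are shown since the 2 calls held under every setting that gave a value, read from the reference on the plus strand, with any match of the motifs above in capitals.
ULBP3 first upstream region, chr6:150070971-150071085: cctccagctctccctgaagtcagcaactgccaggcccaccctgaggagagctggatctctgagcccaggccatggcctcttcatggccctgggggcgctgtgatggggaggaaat
ULBP3 second upstream region, chr6:150071182-150071304: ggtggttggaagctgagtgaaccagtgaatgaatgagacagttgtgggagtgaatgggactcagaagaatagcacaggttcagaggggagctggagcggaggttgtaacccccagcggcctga

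None of the 6 motifs occurred in either. Of the 32-base words of these regions 77.4% and 82.6% occurred once in the genome.

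RAET1E had 2 rises after NaBu, one of them the largest change of the tested ligand regions (50.6). A region in an untranslated exon and introns 9735 bp downstream of its start (149888143 to 149888521) had no peak in the 3 untreated libraries and ranked 38.1, 45.9 and 36.3 after NaBu (40.1 ± 5.38, adjusted p = 0.00116). Its neighbour at 9266 bp (149888622 to 149889382) ranked 31.7, 0 and 12.4 untreated and 67.8, 67.0 and 61.0 treated (50.6 ± 8.25, adjusted p = 0.00248). Both calls held under the other settings that gave a value. Settings that needed a peak in all 6 libraries gave none, so the calls were not tested without ranks set to 0. The first region entered the test through its treated libraries alone. In both, 100% of the 32-base words were unique. Both lie also in introns of RAET1E-AS1 and ENSG00000285991. After NaPr the neighbour ranked 0 in all untreated libraries and 32.7, 0 and 33.5 in treated ones (22.1 ± 10.1, adjusted p = 0.219), and the first had a peak in treated replicate 1 alone and was not tested.

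At MICA, NaBu-treated libraries ranked higher at regions 6442 bp and 4118 bp upstream of the MANE Select start, in no annotated gene. The farther one (31397015 to 31397195) had no peak in untreated libraries and ranked 20.7, 31.4 and 11.0 after NaBu (21.1 ± 5.87, adjusted p = 0.0232). The nearer one (31399408 to 31399534) ranked 0, 0 and 7.98 untreated and 35.7, 47.2 and 36.3 treated (37.1 ± 5.96, adjusted p = 0.00233), and only 26.0% of its 32-base words were unique, so its reads are less surely placed. Between these and the start, a region in an untranslated exon of the upstream transcript (31400570 to 31400816) fell, from 17.5, 22.9 and 25.5 to 0, 0.748 and 0 (−21.7 ± 4.57, adjusted p = 0.00727). The farther call was lost without any one untreated library (adjusted p of 0.0652 to 0.0664). Ranked by fold enrichment, the rises were 3.13 ± 1.25 at the farther region and 3.15 ± 1.29 at the nearer one, and neither passed (adjusted p of 0.118 and 0.125).

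At the farther MICA region NaPr gave 0, 48.1 and 49.3 untreated and 31.7, 52.1 and 33.6 treated (6.62 ± 14.6, adjusted p = 0.815), and at the nearer one 6.70, 0 and 0 untreated and 57.4, 0.0999 and 1.92 treated (17.6 ± 13.7, adjusted p = 0.455). The groups overlapped at both. The region that fell after NaBu had no peak in any NaPr library.

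At MICB, a region 715 bp before the MANE Select start (31497320 to 31497494, intron of the upstream transcript) ranked 9.08, 29.7 and 28.8 untreated and had no peak in the 3 NaBu-treated libraries (−22.6 ± 6.34, adjusted p = 0.0239). It had no peak in the NaPr experiment. This call was lost in 6 of 12 other settings, 5 of them leaving out untreated replicate 2 or 3 or any treated replicate (adjusted p of 0.0612 to 0.0742). The upstream start region described above lost its call without untreated replicate 2 or 3 or treated replicate 3 (0.0611, 0.0755 and 0.0627).

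At ULBP2, the region 8541 bp downstream of the start (149950289 to 149951036), past the gene's end, ranked 46.8, 39.1 and 46.2 untreated and 0, 29.2 and 0 after NaBu (−34.3 ± 8.72, adjusted p = 0.0159). Treated replicate 2 kept a peak below all untreated ones. The call was lost without untreated replicate 1 or 3 or treated replicate 1 or 3 (adjusted p of 0.0540 to 0.0641). After NaPr it ranked 0 in all untreated libraries and 27.8, 1.03 and 0 in treated ones (9.62 ± 8.05, adjusted p = 0.487). The region that ULBP2 shares with ULBP1 (149953561 to 149954828) ranked 55.7, 36.6 and 35.4 untreated and 69.8, 67.1 and 50.4 after NaBu, which overlapped and did not pass (19.9 ± 7.34, adjusted p = 0.0642), with 28.8% of its 32-base words unique. No region of ULBP1 was called.

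RAET1G and RAET1L each had 1 region called higher after NaBu. The RAET1G region 3188 bp upstream (149925291 to 149926472) ranked 84.5, 85.9 and 87.3 untreated and 89.7, 89.9 and 88.1 treated (3.29 ± 1.06, adjusted p = 0.0403), a change close to the median of 2.92 over all regions (1.91 among those with a peak in all 6 libraries). It was lost in 11 of 16 other settings, among them ranks counted from the top (2.05 ± 0.945, adjusted p = 0.122) and the sets without untreated replicate 1 or 2 or treated replicate 1 or 2 (adjusted p of 0.0876 to 0.112), and was 0.00410 ± 0.0953 on the log2 scale of tags over background (adjusted p = 0.975). The RAET1L region 4421 bp upstream (150029892 to 150030002) ranked 0, 0 and 8.79 untreated and 47.0, 23.9 and 37.0 treated (33.0 ± 7.07, adjusted p = 0.00778) and had no peak in the NaPr experiment. Ranked by fold enrichment it did not pass (6.99 ± 2.57, adjusted p = 0.0940), nor did any region of MICA or MICB called here.

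**Figure D4:**
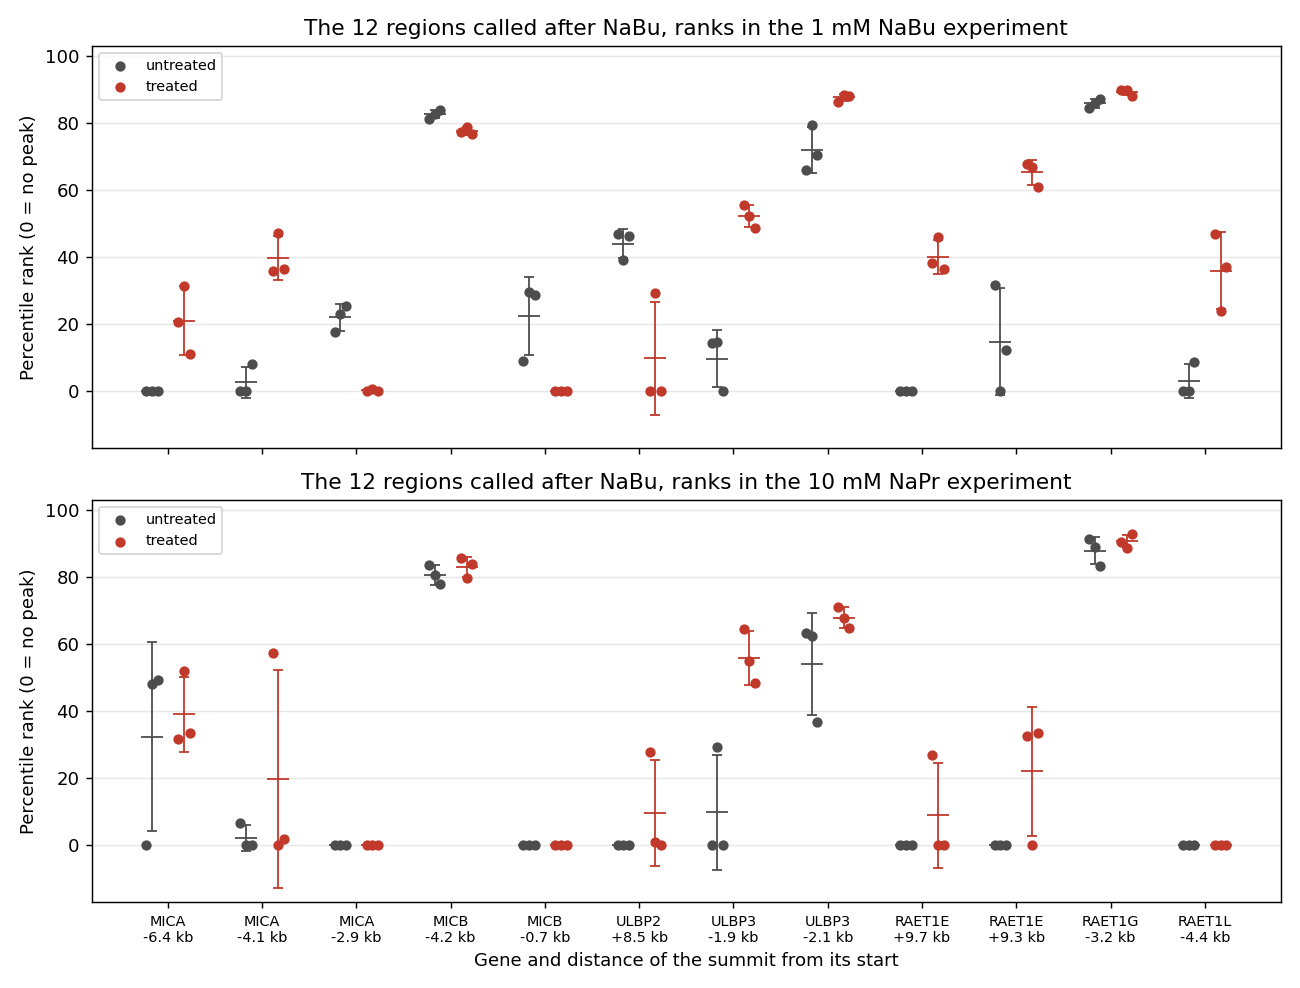
Percentile ranks of the 12 ligand regions called after NaBu (vertical axis, 0 where no peak was listed) in the NaBu experiment (top) and the NaPr experiment (bottom), labelled by gene and distance of the summit from its start in kb; points are libraries and bars the mean with its SD. The untreated and treated points separate at all 12 in the NaBu experiment, and in the NaPr experiment the ULBP3 regions separate in the same direction without passing the test.

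Of the 12 regions called after NaBu, 8 were also tested after NaPr, and 6 of the 8 had a change of the same sign there, against 81.5% of the 33001 such regions genome-wide. The NaPr regions closest to the threshold, chosen after their values were seen, were the ULBP3 region above, the MICA and RAET1L starts, and distal regions of RAET1L and RAET1G. The RAET1L region 10114 bp downstream of the start (150015065 to 150015694) ranked 65.5, 60.9 and 53.1 untreated and 28.8, 27.2 and 1.87 treated, without overlap (−40.5 ± 11.0, adjusted p = 0.0573). It passed as lower under 6 of 16 other settings, among them the filter to regions with a peak in all 6 libraries (adjusted p = 0.0180) and the tags scaled by background (−0.781 ± 0.282, log2, adjusted p = 0.0419). It had no peak in the NaBu experiment. The RAET1G region 9822 bp downstream (149912778 to 149914082) ranked 43.5, 0 and 33.4 untreated and 59.4, 66.9 and 59.2 treated (36.2 ± 11.7, adjusted p = 0.0942).

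Peaks listed in the windows numbered 32, 33 and 32 in untreated and 41, 38 and 35 in NaPr-treated libraries, which did not overlap. They numbered 35, 34 and 37 untreated and 34, 40 and 38 after NaBu, which did. Over the genome the NaPr lists held 140954, 118976 and 112145 intervals untreated and 144398, 129465 and 114426 treated, which overlapped. The NaBu lists held 108442, 120971 and 117799 untreated and 126008, 128955 and 127119 treated, which did not. The NaPr lists also differ in depth and in their weakest peak, and the highest count, 41, came from the longest list, at a background of 0.938 tags. The part of list length in these counts was not tested.

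The matches of the motifs in the 201 bases around each summit were counted over the 59 regions. AP-1 letters occurred in 10 of the 59 and in 16.3% of all SW480 regions, the GC box in 12 and 11.4%, the CCAAT box in 14 and 22.6%, and the heat shock element in 6 and 4.55%. The TATA box occurred in 3 and 7.13%, and the CRE in none and 0.294%.

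The other genes of the pathway were read from lists by role, for the regions in each gene and 10 kb around it, against the same backgrounds of 5.32% and 37.1%. For the receptor list (KLRK1, which encodes NKG2D, and the genes of the NK cell adaptors HCST and TYROBP), 0 of 5 tested regions were called after NaPr and 3 higher and 1 lower of 13 after NaBu. HCST, whose product couples NKG2D to signalling, rose at its start from a mean rank of 29.4 to 55.0 after NaBu (25.6 ± 5.76, adjusted p = 0.00973), and stood at 56.5 and 42.7 without and with NaPr (−13.8 ± 8.55, adjusted p = 0.346). For 8 other ligands of NK receptors, 2 regions were higher and 1 lower of 54 after NaPr, and 18 higher and 5 lower of 50 after NaBu. NECTIN2, a ligand of DNAM-1, rose at its start from 91.7 to 94.9 after NaBu (3.24 ± 0.849, adjusted p = 0.0182). HLA-E, the ligand of the inhibitory receptor NKG2A, rose from 84.9 to 88.9 (3.99 ± 1.11, adjusted p = 0.0226). The median change after NaBu was 2.92 over all tested regions and 1.91 among those with a peak in all 6 libraries, as both starts had.

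For 5 genes of ligand shedding, the proteolytic release of ligands from the cell surface, 1 region was higher and 0 lower of 25 after NaPr, and 12 higher and 3 lower of 30 after NaBu. At the starts after NaBu the protease gene ADAM10 rose from 90.0 to 93.6 (3.59 ± 0.735, adjusted p = 0.00639), ADAM17 fell from 99.4 to 96.3 (−3.09 ± 0.789, adjusted p = 0.0163) and MMP14 fell from 67.3 to 52.0 (−15.4 ± 3.36, adjusted p = 0.00857). For 10 regulators of ligand expression in stress and DNA damage, 2 were higher and 1 lower of 35 after NaPr, and 6 higher and 6 lower of 34 after NaBu. No start region on these 4 lists was called after NaPr.

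The marker lists gave, after NaPr, 1 region higher and 4 lower of 49 for colon epithelium, 1 higher and 1 lower of 30 for lymphocytes and NK cells, and 0 higher and 1 lower of 10 for fibroblasts. After NaBu they gave 3 higher and 13 lower of 52, 9 higher and 5 lower of 37, and 6 higher and 3 lower of 14. KRT8, an epithelial keratin gene, fell at its start after NaPr from 83.4 to 66.0 (−17.5 ± 3.00, adjusted p = 0.0121), the one start on any list called after NaPr, and stood at 69.7 and 70.6 without and with NaBu (adjusted p = 0.822). COL1A1 and COL1A2, collagen genes of the fibroblast list, rose at their starts after NaBu from 84.3 to 93.9 and from 62.3 to 89.7 (adjusted p of 5.13e-04 and 0.00102). Their part in the ligand values was not tested.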

How the data were processed

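ATAC-seq measures open chromatin by where a transposase inserts sequencing adapters. Per the study's methods, Omni-ATAC was run on 50000 viable cells per reaction and the reads went through the ENCODE pipeline. Per the labels' processing notes, the tools were bcl2fastq 2.17.1, cutadapt 1.9.1, Bowtie2 2.3.1 and MACS2 2.1.0, on hg38. The authors deposited 1 MACS2 peak list per library. These deposited lists give for every peak a fold enrichment over local background (a ratio), a significance as −log10 p and the same after correction as −log10 q. A further column places the summit within its interval. Reads and counts per region were not used here, so accessibility was compared through ranks, and the study's own site test, which needs reads, was not run. The mouse CT26 libraries were not used here.

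Intervals of the 12 SW480 lists that overlapped by at least 1 bp were merged. Ranks used the highest −log10 p of a region. Each experiment was fitted separately with limma 3.58.1 (R 4.3.3, moderated with a mean trend, two-sided) over regions with a peak in at least 2 of 6 libraries, with Benjamini-Hochberg adjustment over all of them and a threshold of 0.05. The fit was tested on simulated data. Summit tags and the background were recovered from the deposited fold and −log10 p values under the Poisson model of the caller, which gave the relative depth. Genes came from GENCODE 44, promoters from the RefSeq table for GRCh38.p14 (all 8 genes matched), and region sequence from the hg38 reference. Python 3.11.15 did the rest.

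All 8 genes, every called region and each start region are named. On the other lists up to 8 genes are named, those whose start region was called, and 1 result is not reported here. MANE Select starts were added after the annotation was seen. The genes and lists were chosen with earlier results of these data known. No list was a near-copy of another: at most 0.796% of intervals were identical between replicates. Alternatives were the ranking value, list length, merging, summit windows of 100 bp on either side, filters, the scale, flanks of 0 and 50 kb, a replicate block and leaving out each library.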

Additional observations from a re-analysis of the deposited data

How the results depend on the processing

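Of the 12 regions called after NaBu, none changed sign under any setting that gave a value: 125 of 157 values stayed past the threshold and 32 did not. Ranks counted from the top of the list were chosen after seeing the data. Regions without a peak in some library gave no value under the filter to all 6 libraries or on the tag scales. The causes of the differences below were not tested.

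Ligand regions called after NaPr numbered 0 of 39 tested. Without any one library the count was 0 in each case. It became 1 of 75 with flanks of 50 kb. With the top 50000 intervals it was 3 of 23 (8821 of 53490 genome-wide), and with summit windows 5 of 55 (11621 of 162247). With a peak in all 6 libraries it was 1 of 25 (6758 of 65178). Tags over background and median gave 1 and 4 of 25 (9530 and 20947 of 65178), and ranks from the top 3 of 39 (10447 of 124067). Genome-wide, 6598 calls after NaPr became 0 by fold enrichment (20921 regions had an unadjusted p below 0.05 in limma), 11621 with summit windows, 1313 without a filter, 20947 with tags over median, 10447 with ranks from the top, and 0 to 3179 without one library. After NaBu 12 ligand calls of 40 tested became 4 of 18 in the gene bodies alone, 24 of 76 with 50 kb, and 8 to 13 without one library. Genome-wide, leaving out a library gave 22789 to 27664 higher and 12265 to 14551 lower calls, of 117175 to 120763 tested. By fold enrichment the ligand calls were 5 of 40 (32768 of 123730 genome-wide), and with the top 50000 intervals 5 of 22 (22553 of 55345). With a peak in all 6 libraries they were 5 of 27 (29971 of 72559). On tags over background and median they were 6 of 27 each (38317 and 38505 of 72559). With summit windows the ligand calls were 18 of 65, 9 higher and 9 lower, and the 45903 genome-wide calls became 69837 of 192964.

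Replicate numbers paired the libraries weakly at most: same-numbered deviations correlated at 0.01 to 0.06, and the others at −0.05 to 0.02. The main fit did not pair them. With a replicate block 1 ligand region was called after NaPr and 15 after NaBu, of 7647 and 47756 in all. Among the regions named, the block added the MICB start (4.97, limma adjusted p = 0.0458) and the ULBP3 start (2.38, adjusted p = 0.0326) after NaBu, and lost the RAET1G region 3188 bp upstream (3.29, adjusted p = 0.0522).

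Signs turned only at start regions that did not pass. After NaPr the MICB start was −1.29 by fold enrichment, −1.41 with the top 50000 intervals, −0.104 (log2) with tags over median, −0.563 with ranks from the top, and −4.19 to 4.55 without one library. The upstream MICA start was 0.540 with summit windows, 0.107 (log2) with tags over background, and −4.77 to 2.03 without one library. RAET1E was 0.106 (log2) with tags over background. With tags over median (log2) the upstream MICB start was −0.0212, ULBP2 −0.0745 and ULBP3 −0.133, and ULBP2 was −1.58 to 3.52 without one library. After NaBu ULBP1 was −0.893 by fold enrichment. On tags over background and over median (log2) the upstream MICA start was −0.0479 and −0.0437, RAET1G −0.0715 and −0.0672, ULBP1 −0.0964 and −0.0921, and ULBP3 −0.0371 and −0.0329. Without one library RAET1E was −11.8 to 3.74, ULBP2 −2.82 to 1.84 and MICA −1.58 to 0.181.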
